A study of Arabidopsis thaliana with 9 samples.

Results

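WRKY29 (AT4G23550) and WRKY47 (AT4G01720) are Arabidopsis thaliana genes for transcription factors of the WRKY family, and each was measured by 1 probe set whose only annotated gene it was. They are 2 of the 16550 genes with a probe set of their own, and the table held 28501 probe sets in all. Both were chosen with results of these arrays known, so their levels across the genotypes are given as a description, with standard errors and without p-values. Another 5 genes with symbols starting WRKY had a probe set of their own (WRKY6, WRKY20, WRKY22, WRKY41 and WRKY42) and serve as reference.

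The arrays carried RNA from aerial parts of 10-day-old seedlings in the Col-0 ecotype, grown without a treatment on 0.5 MS plates. Wild type was compared with the ssrp1-2 and the spt16-1 mutants, with 3 arrays per genotype, which the titles number as biological replicates, and several plants (100 mg of tissue) pooled per RNA sample. SSRP1 and SPT16 together form FACT, the histone chaperone that helps RNA polymerase II through nucleosomes. Neither the lesions of the alleles nor the sowing behind each pool is described in the labels, so the errors measure the spread between these pools.

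WRKY proteins bind W-box elements in promoters and regulate many responses of plants to pathogens and to their environment. WRKY29 belongs to subgroup IIe of the family and is known, with its relative WRKY22, as a factor downstream of the MAP kinase cascade that the flagellin receptor FLS2 activates in leaf cells. WRKY47 belongs to subgroup IIb, with WRKY6 and WRKY42, and has been linked in Arabidopsis to aluminium tolerance through genes that modify the cell wall. WRKY6 and WRKY42 are known for roles in phosphate homeostasis.

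Array medians lay between 4.95 and 4.98 on the log2 scale of the deposited values, and 0 pairs of arrays were identical. Of 14 markers of green tissue 1 was measured, RCA, the gene of Rubisco activase, and its means were 12.37 in wild type, 12.29 in ssrp1-2 and 12.27 in spt16-1. Of 14 root markers 2 were measured. EXP7, an expansin gene of root hair cells, lay between 3.09 and 3.62 over all arrays. PYK10, a beta-glucosidase gene also expressed in young shoots, lay between 10.76 and 11.47. It was lower in ssrp1-2 than in wild type by 0.38 and than in spt16-1 by 0.47. Neither difference passed limma's test (adjusted p = 0.199 and 0.163). The part of these markers in the WRKY values was not tested. In whole aerial parts, fewer cells that express a gene and less RNA per cell cannot be told apart.

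WRKY29 was lowest in wild type and higher in both mutants. Its log2 expression values were 4.86, 5.28 and 5.0 in wild-type replicates 1, 2 and 3, then 5.5, 5.63 and 5.74 in ssrp1-2 and 5.42, 5.43 and 5.42 in spt16-1. Every array of either mutant was above the highest wild-type array. The genotype means were 5.05 ± 0.21 in wild type, 5.42 ± 0.01 in spt16-1 and 5.62 ± 0.12 in ssrp1-2 (SD, n = 3). The difference from wild type was 0.58 in ssrp1-2 and 0.38 in spt16-1 on the log2 scale, with a standard error of 0.111 in each. On the linear scale these are ratios of 1.49 and 1.3. The spt16-1 arrays were much closer to each other than the arrays of the other genotypes: their SD was 0.007 before rounding to fewer digits, and 3.19% of all probe sets had a smaller SD among the spt16-1 arrays. They held 2 distinct values, so 1 pair of these arrays carried exactly the same number.

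WRKY47 was ordered like WRKY29, with wild type lowest and ssrp1-2 highest. Its log2 values were 5.91, 6.19 and 6.19 in wild type, 6.72, 6.81 and 6.85 in ssrp1-2 and 6.48, 6.66 and 6.40 in spt16-1. The mutant arrays again all lay above the wild-type arrays. Means were 6.10 ± 0.16 in wild type, 6.51 ± 0.13 in spt16-1 and 6.80 ± 0.07 in ssrp1-2 (SD, n = 3). WRKY47 stood 0.70 above wild type in ssrp1-2 and 0.41 above it in spt16-1, each with a standard error of 0.103, which are ratios of 1.62 and 1.33. The difference between ssrp1-2 and wild type was larger than the SD of any genotype, and the lowest ssrp1-2 array was 0.53 above the highest wild-type array.

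**Figure D1:**
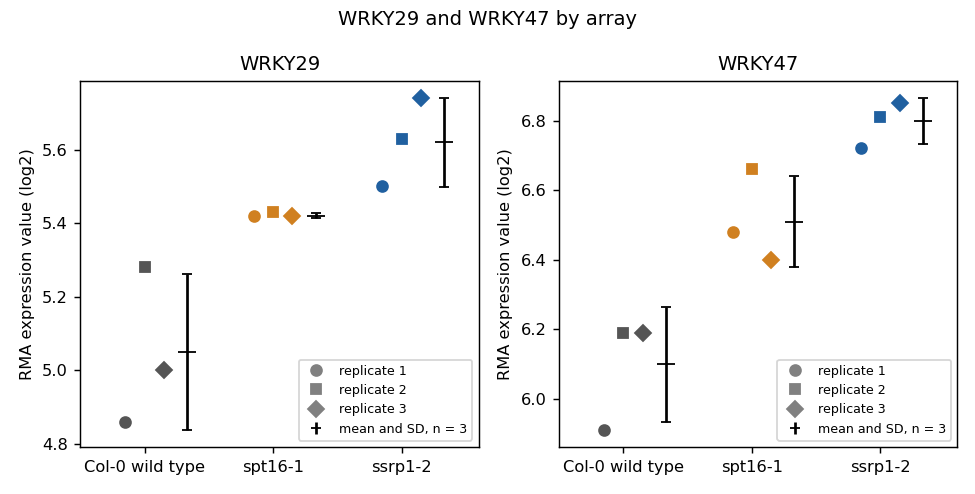
Deposited log2 expression value (RMA) of WRKY29 (left) and WRKY47 (right) on each of the 9 arrays, by genotype, with marker shape giving the replicate number and black bars the mean and SD of 3 arrays. For both genes the wild-type arrays lie lowest, the spt16-1 arrays between and the ssrp1-2 arrays highest, with a gap of only 0.07 between spt16-1 and ssrp1-2.

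The neighbouring positions in this order were separated to different degrees. Wild type and spt16-1 were 0.14 apart at their nearest arrays for WRKY29 and 0.21 apart for WRKY47. The mutants were closer to each other. For WRKY29 the ssrp1-2 mean exceeded the spt16-1 mean by 0.20 (standard error 0.111), and the nearest arrays were 0.07 apart. This is above the ssrp1-2 SD of 0.12 and close to the SD of 0.21 among the wild-type arrays. The spt16-1 SD of 0.01 holds a pair of equal values, so it is a poor yardstick for that difference. For WRKY47 that difference was 0.29 (standard error 0.103), above the SD of each genotype, but the gap between the nearest arrays was 0.07 and the range within spt16-1 was 0.26. Both genes thus had every ssrp1-2 array above every spt16-1 array and every spt16-1 array above every wild-type array. Of all probe sets, 0.712% were ordered in this way without overlap, 9.37% had every ssrp1-2 array above wild type, 8.53% every spt16-1 array above wild type and 8.27% every ssrp1-2 array above spt16-1. The genes were chosen on these contrasts, so nothing is read from their count of 2.

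In size the differences were modest. In ssrp1-2, 473 of the 28501 probe sets (1.66%) had a larger positive difference from wild type than WRKY29, and 280 (0.982%) a larger one than WRKY47. In spt16-1 these counts were 1026 (3.60%) for WRKY29 and 838 (2.94%) for WRKY47. All 18 values of the genes lay above 3.17, the highest lower quartile of any array, so neither gene was among the dimmest 25% of probe sets on any array. The wild-type group is shared by both mutant comparisons, so a high or low wild-type array moves the 2 differences of a gene together. Without wild-type replicate 1, the lowest array for both genes, WRKY29 stood 0.48 and 0.28 above wild type in ssrp1-2 and spt16-1, and WRKY47 stood 0.60 and 0.32 above it.

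WRKY22, the subgroup IIe relative of WRKY29 that acts in the same MAP kinase pathway, had another pattern. Its values were 6.27, 5.82 and 6.24 in wild type, 6.81, 6.57 and 6.88 in ssrp1-2 and 5.98, 6.26 and 6.30 in spt16-1. Every ssrp1-2 array lay above every array of the other genotypes, whereas the spt16-1 and wild-type arrays overlapped. The log2 difference from wild type was 0.64 in ssrp1-2 (standard error 0.146, limma adjusted p = 0.0600) and 0.07 in spt16-1 (adjusted p = 0.900). The mutants differed by 0.57 when set against each other, with an adjusted p of 0.150 in the limma fit. None of these 3 comparisons passed. The first was called by limma with an intensity trend (adjusted p = 0.0250) or without the dimmest 25% of probe sets (adjusted p = 0.0412), and its adjusted p ranged from 0.0250 to 0.172 over 12 alternatives.

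The subgroup IIb relatives of WRKY47 had smaller differences than WRKY47. WRKY6 had means of 7.10 ± 0.07 in wild type, 7.26 ± 0.04 in ssrp1-2 and 7.15 ± 0.08 in spt16-1 (SD, n = 3). Its log2 differences of 0.16 and 0.05 had limma adjusted p of 0.358 and 0.854. WRKY42 had means of 4.0 ± 0.19, 4.2 ± 0.08 and 4.29 ± 0.16 in the same order. Its differences were 0.20 in ssrp1-2 and 0.29 in spt16-1 (adjusted p = 0.497 and 0.356), so that its mean was higher in spt16-1 than in ssrp1-2, by 0.09, unlike the means of WRKY29 and WRKY47. The direct comparison of the mutants for WRKY42 had an adjusted p of 0.819 by limma.

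WRKY41 and WRKY20 were nearly level across genotypes. WRKY41, a gene with roles in defence and seed dormancy, had a mean of 2.83 in each genotype and a highest value of 3.0, below the lower quartile of every array (3.10 or more), and at such a level a change could have gone unseen. WRKY20 had means of 8.37 in wild type, 8.35 in ssrp1-2 and 8.33 in spt16-1, differences of -0.02 and -0.04 with a standard error of 0.0655.

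Of the 5 reference genes, limma called 0 in ssrp1-2 against wild type, 0 in spt16-1 against wild type and 0 between the mutants. At an unadjusted p under 0.05 there was 1 in each comparison: WRKY22 in the first, WRKY42 in the second and WRKY22 in the third. Of all probe sets 14.4%, 12.6% and 12.0% had such a p, and 2.58%, 2.02% and 0.835% were called after adjustment, in either direction. The median difference of the 5 genes was 0.16 in ssrp1-2 and 0.05 in spt16-1, beside 0.00 and -0.01 for all probe sets. The difference between WRKY29 or WRKY47 and the reference genes was not tested. The remaining WRKY genes, out of 67 such symbols in the RefSeq annotation of TAIR10.1, had no probe set of their own in the annotation used and were not analysed here.

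**Figure D2:**
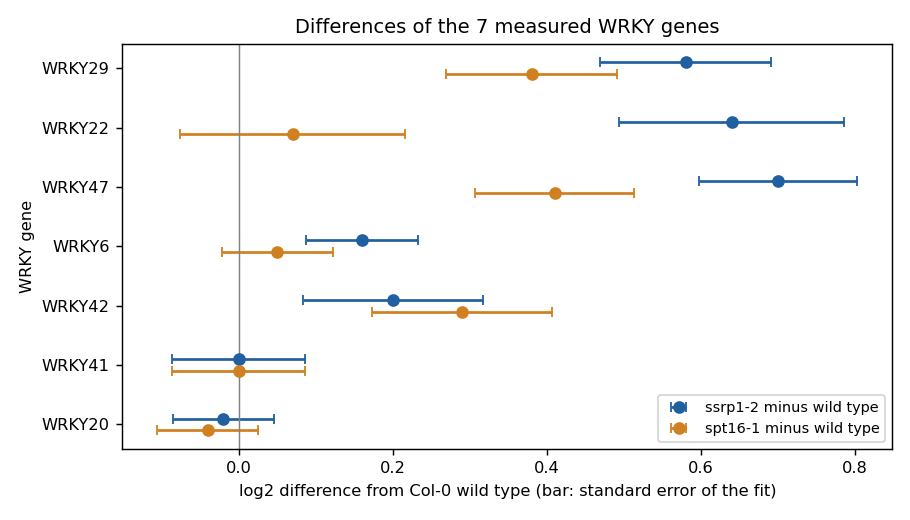
Log2 difference from wild type (x axis) of each WRKY gene with its own probe set (y axis) in ssrp1-2 and spt16-1, with bars for the standard error of the limma fit. In ssrp1-2, WRKY29 (0.58), WRKY22 (0.64) and WRKY47 (0.70) lie to the right of the other 4 genes, while in spt16-1 WRKY22 (0.07) lies near 0 and WRKY47 (0.41) and WRKY29 (0.38) do not.

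Coverage of the pathway around WRKY29 was thin. Of 23 listed genes of pattern-triggered immune signalling, from receptors through the kinase cascade to response genes, 3 were measured: EFR, BIK1 and WRKY22. EFR had means of 3.68, 3.51 and 3.68 in wild type, ssrp1-2 and spt16-1 and did not pass. These lay not far above the lower quartile of the arrays (3.10 to 3.17), where a small change could have gone unseen. EFR is the receptor of bacterial elongation factor Tu. BIK1, a cytoplasmic kinase that relays signals from such receptors, had values of 6.67, 6.40 and 6.41 in wild type, 7.04, 6.98 and 7.0 in ssrp1-2 and 6.83, 6.79 and 6.72 in spt16-1. The BIK1 arrays were ordered without overlap in the same way as those of WRKY29 and WRKY47, as were 0.712% of all probe sets. The nearest spt16-1 and wild-type arrays of BIK1 were only 0.05 apart. BIK1 rose by 0.51 in ssrp1-2 (standard error 0.0860, limma adjusted p = 0.0171), and its difference of 0.29 in spt16-1 did not pass (adjusted p = 0.177).

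This call for BIK1 did not hold without wild-type replicate 2 (adjusted p = 0.0662) or 3 (0.0693), without ssrp1-2 replicate 1 (0.0605), 2 (0.0515) or 3 (0.0576), and in the limma fit of the 2 genotypes alone (0.0663). So 1 of the 3 measured genes of the list was called higher in ssrp1-2, 0 were called lower, and 0 were called in spt16-1 or between the mutants. Over all probe sets 2.58%, 2.02% and 0.835% were called in these comparisons. At an unadjusted p under 0.05 there were 2, 1 and 2 of the 3 genes, beside 14.4%, 12.6% and 12.0% of all probe sets. The list's median difference was 0.51 in ssrp1-2 and 0.07 in spt16-1. The list was chosen with earlier results of these data known, so nothing is read from its counts. Of the 13 listed genes of the salicylic acid pathway 0 were measured.

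Of the 3 cell-wall genes listed for WRKY47, XTH18 was measured, and whether WRKY47 acts on it was not tested. It encodes an enzyme that cuts and rejoins xyloglucan in cell walls and is a close relative of XTH17, which was not analysed here. XTH18 differed from WRKY47 in pattern, with values of 3.24, 3.66 and 3.84 in spt16-1 that overlapped the wild-type values of 3.18, 3.71 and 3.61. In ssrp1-2 its values were 4.75, 5.57 and 5.24. The wild-type and spt16-1 means of XTH18, 3.50 and 3.58, lay not far above the lower quartile of the arrays (3.10 to 3.17). At such a level a small change in spt16-1 could have gone unseen. XTH18 rose in ssrp1-2 by 1.69 (standard error 0.237, limma adjusted p = 0.00739), was at 0.08 in spt16-1 (adjusted p = 0.934), and was higher in ssrp1-2 than in spt16-1 by 1.60 (adjusted p = 0.0227). The call between the mutants was lost without any 1 spt16-1 array, without ssrp1-2 replicate 2 or 3, and in the fit of the 2 genotypes alone (adjusted p from 0.0580 to 0.0895). This list too was chosen with earlier results of these data known, so the calls for XTH18 are descriptions.

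WRKY29 and WRKY47 both lie on chromosome 4 and are not neighbours. AT4G23560 (GH9B15), a glycosyl hydrolase gene and the annotated neighbour of WRKY29 on one side, had log2 differences of 0.26 and 0.09 in ssrp1-2 and spt16-1 (limma adjusted p = 0.551 and 0.880). AT4G23540, on the other side, shared its probe sets with another gene and is not reported. The neighbours of WRKY47, AT4G01710 and AT4G01730, had differences of 0.05 and 0.08 in ssrp1-2 and of 0.07 and -0.03 in spt16-1, with limma adjusted p from 0.752 to 0.955. None of the 3 measured neighbours passed in any comparison, and the arrays of each overlapped between genotypes. AT4G23560 had means of 3.20 in wild type, 3.46 in ssrp1-2 and 3.29 in spt16-1. These lay close to the lower quartile of the arrays (3.10 to 3.17), and at such a level a change could have gone unseen.

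Over the 9 arrays WRKY29 and WRKY47 correlated with each other at r = 0.942. Among the 5920 other named probe sets with an SD of at least 0.2 over the arrays, WRKY47 ranked 10th in likeness to WRKY29, and WRKY29 ranked 13th in likeness to WRKY47. These correlations are descriptions: the 9 points fall into 3 genotypes, and the genes share the arrays. Both genes were also chosen on these contrasts, which favours a high r, so nothing is read from this r or these ranks. With each genotype's mean subtracted, the deviations of WRKY29 and WRKY47 correlated at 0.66. The 95th percentile of such correlations over the 5920 probe sets was 0.64 for WRKY29 and 0.71 for WRKY47. The value of 0.66 lay between these percentiles and was not tested.

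The 5 genes most like WRKY29 were AT3G15630 (r = 0.968), AT2G42040 (0.964), AT3G16530 (0.963), AT2G43590 (0.956) and AT3G63090 (0.950). AT3G16530 encodes a legume lectin-like protein and AT2G43590 a protein of the chitinase family. AT3G15630 had values of 5.83, 6.20 and 5.86 in wild type, 7.06, 7.31 and 7.32 in ssrp1-2 and 6.72, 6.77 and 6.76 in spt16-1. As for WRKY29, wild-type replicate 2 was the highest wild-type array and the spt16-1 arrays were close together. Log2 differences from wild type among the 5 genes ran from 0.37 (AT3G63090) to 1.27 (AT3G15630) in ssrp1-2 and from 0.27 (AT2G42040) to 0.79 (AT3G15630) in spt16-1. With the genotype means subtracted, their r with WRKY29 lay between 0.80 (AT3G16530) and 0.94 (AT3G15630), beside a median of -0.02 and a 95th percentile of 0.64 over the 5920 probe sets. The genes were picked for their r on these same arrays, which favours agreeing deviations, so nothing is read from these values. AT3G63090 had 1 value, 3.66, on all 3 spt16-1 arrays.

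The 5 genes most like WRKY47 were AT1G07135 (r = 0.988), STZ (0.979), AT2G44290 (0.975), AT3G59350 (0.967) and SCPL34 (0.960), of which none was among the 5 for WRKY29. AT1G07135 encodes a glycine-rich protein, STZ a zinc-finger repressor of stress responses, AT3G59350 a protein kinase and SCPL34 a serine carboxypeptidase-like protein. STZ had values of 5.74, 6.02 and 6.0 in wild type, 7.88, 8.01 and 8.05 in ssrp1-2 and 7.11, 7.35 and 6.95 in spt16-1. In STZ as in WRKY47, wild-type replicate 1 was the lowest wild-type array, spt16-1 replicate 2 the highest of its genotype and ssrp1-2 replicate 1 the lowest of its own. After subtraction of the genotype means the r with WRKY47 was 0.97 for STZ. For the other 4 genes it lay between 0.67 (AT3G59350) and 0.91 (AT1G07135 and SCPL34). The 95th percentile over the 5920 probe sets was 0.71. These 5 genes were also picked for their r on these same arrays, which favours agreeing deviations. Nothing is therefore read from these values or from the likeness of STZ and WRKY47 by array. In ssrp1-2 the differences of the 5 genes from wild type ran from 0.66 (AT2G44290) to 2.06 (STZ), and in spt16-1 from 0.25 (SCPL34) to 1.22 (STZ).

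**Figure D3:**
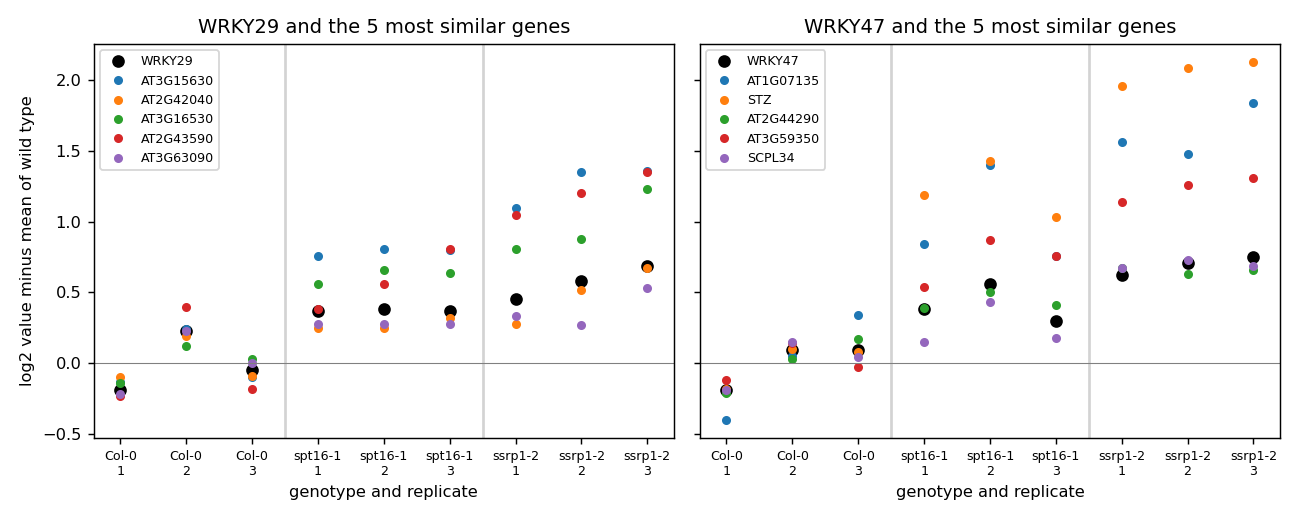
Log2 value minus the wild-type mean (y axis) on each of the 9 arrays (x axis, by genotype and replicate) for WRKY29 and the 5 genes most like it (left) and for WRKY47 and the 5 genes most like it (right). All 6 genes on the right have their lowest mean in wild type and their highest in ssrp1-2, with STZ reaching a mean 2.06 above wild type in ssrp1-2 against 0.70 for WRKY47.

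Genes with the opposite pattern were highest in wild type. For WRKY29 the 3 lowest correlations were with AT3G44380 (r = -0.954), AT3G24230 (-0.950), a pectate lyase family gene, and the acyltransferase gene AT1G03940 (-0.950). For WRKY47 they were with the expansin gene EXPB3 (-0.967), the iron-signalling peptide gene AT1G47400 (-0.957) and AT3G24230 (-0.953). AT3G24230 was thus among the 3 lowest for both genes, with means of 5.63 ± 0.23 in wild type, 4.85 ± 0.09 in spt16-1 and 4.55 ± 0.33 in ssrp1-2 (SD, n = 3). EXPB3 had the reverse order of genotypes, with differences of -0.70 in ssrp1-2 and -0.41 in spt16-1 beside 0.70 and 0.41 for WRKY47.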

How the data were processed

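The deposited log2 values, 1 for each array and probe set, came from RMA (no version named) and Affymetrix Expression Console 1.3 according to the submitters' processing notes, and 200 ng of total RNA was labelled per array, per the labels. RMA sets the arrays to a common distribution, so a change in total RNA would not show, and array values carry no counting depth: the number of arrays limits the precision. Gene names came from GEO's platform annotation, and locus names, neighbours and chromosome from RefSeq's TAIR10.1 annotation. No coordinates are printed, since no source used here names the build behind the probes. Of the 28501 probe sets 16722 had 1 gene, 759 had several and gave no name, and 11020 were unnamed.

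All 28501 probe sets were fitted with limma 3.58.1 in R 4.3.3 (lmFit, eBayes, two-sided) in 1 fit of the 9 arrays, with 6 residual and 2.76 prior degrees of freedom. The Benjamini-Hochberg adjustment ran over every probe set of a comparison, with a threshold of 0.05. Standard errors are the moderated ones of that fit. The fit was tested on simulated data. WRKY29, WRKY47 and the gene lists were chosen with earlier results of these data known. Named genes were WRKY29, WRKY47, the WRKY genes with a probe set, list members, the 5 highest and 3 lowest correlations per gene, and annotated neighbours, the last added after the values could be seen. The likeness measure is Pearson's r of log2 values, and r of the deviations from genotype means was also added later. Alternatives were other scalings, means of linear values, a replicate block, an intensity trend, a filter on dim probe sets, fits of 2 genotypes and leaving out each array.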

Additional observations from a re-analysis of the deposited data

How the results depend on the processing

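The differences of WRKY29 and WRKY47 kept their sign under every alternative run. These were other scalings, means of linear values, the replicate block and leaving out each array. Leaving out an array or averaging linear values could not have reversed a sign, since the genotypes' arrays did not overlap for either gene. The replicate block could not change a difference, since each number occurred once in each genotype. The other scalings had little room to reverse a sign, since the array medians already lay between 4.95 and 4.98. Nothing is therefore read from the kept signs. Leaving out 1 array gave 0.48 to 0.69 (WRKY29) and 0.60 to 0.75 (WRKY47) for ssrp1-2 against wild type, 0.28 to 0.49 and 0.32 to 0.47 for spt16-1 against wild type, and 0.14 to 0.26 and 0.23 to 0.36 between the mutants. The count of reference WRKY genes called in ssrp1-2 was 1, WRKY22, with an intensity trend and 1, also WRKY22, without the dimmest 25% of probe sets, in which fewer probe sets were tested; it was 0 under the other alternatives, and 0 without any 1 array. The share of all probe sets called moved from 2.58% to between 1.40% and 4.45% in ssrp1-2, from 2.02% to between 0.951% and 3.59% in spt16-1, and from 0.835% to between 0.281% and 1.74% between the mutants. The deviations of same-numbered arrays of different genotypes correlated at r from -0.135 to 0.0692 over 9 pairs. Those of differently numbered arrays correlated at -0.112 to 0.0851 over 18 pairs. Whether arrays with the same number shared a sowing or their handling was not tested. With the replicate block the differences were the same, 0.58, 0.38 and 0.20 for WRKY29 and 0.70, 0.41 and 0.29 for WRKY47, 0 reference WRKY genes were called in each comparison, and 1.33% of probe sets were called in spt16-1 and 0.411% between the mutants.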

Other observations

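Some deposited values repeat exactly between arrays. In spt16-1, 615 of the 28501 probe sets had 1 value on all 3 arrays, 538 did so in wild type and 481 in ssrp1-2. WRKY29 had the same value on 1 pair of spt16-1 arrays, WRKY47 on 1 pair of wild-type arrays and WRKY41 on pairs in wild type and ssrp1-2. The cause was not tested. The SD of 0.007 for WRKY29 in spt16-1 rests on such a pair, while its SDs of 0.213 in wild type and 0.121 in ssrp1-2 were larger than those of 79.2% and 49.2% of probe sets.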
